A study of Mus musculus with 8 samples.

Results

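The genes described here encode cytochrome P450 enzymes (Cyp) and carboxylesterases (Ces), measured in mouse testis RNA. They were chosen by name alone, as every probe set whose single gene symbol in the array annotation is Cyp or Ces followed by a digit. Cyp11a1, Cyp17a1 and Cyp51, which serve steroid and sterol synthesis, were left out by the same rule. This gave 49 of the 12422 probe sets on the array, for 42 of the 8251 genes named by a single symbol: 43 probe sets of 37 P450 genes and 6 probe sets of 5 carboxylesterase genes. Each probe set combines several short probes for 1 transcript. A further 7 probe sets that the annotation assigns to several Cyp genes at once were not members. Of the 4 of these that were tested, limma called 0 among the 4 groups of arrays.

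The study hybridised total RNA from testis to Affymetrix arrays and, by its title, compared expression among house mice. The 8 arrays form 4 groups of 2, labelled Mus musculus castaneus, Mus musculus domesticus, Mus musculus musculus and Mus musculus ssp. The labels give no age, strain or treatment and do not explain ssp. They call the 2 arrays of a group technical replicates, so each p-value measures the spread between arrays and not between animals, and each comparison is between RNA samples.

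Cytochrome P450 enzymes are haem proteins, mostly of the endoplasmic reticulum, that insert oxygen into fatty acids, steroids, retinoids, bile acids and foreign compounds with electrons passed on by partner reductases. Carboxylesterases hydrolyse esters, among them drugs, cholesteryl esters and triacylglycerols. Both families are best known from the liver, both expanded in the mouse into clusters of closely related neighbouring genes, and in the testis P450 enzymes are best known from steroid and retinoic acid metabolism.

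Ces1c, a carboxylesterase that the mouse liver secretes into plasma, was the only member called different among the 4 RNA samples. Ces1g, from the same run of Ces1 genes but not next to Ces1c, was dim on every array. The P450 Cyp2d26 was bright on every array with close replicates. The 250 bases before the start of these 3 genes are printed to show the promoters behind a transcript that differed, a dim relative and a bright P450 that did not pass. They come from RefSeq (GRCm38.p6), where 33 of the 42 member genes had an entry. All 3 lie on the minus strand and are written 5′ to 3′ towards the start. Capitals mark matches to TATAAA or CCAAT on either strand.
Ces1c, chr8:93131284-93131533: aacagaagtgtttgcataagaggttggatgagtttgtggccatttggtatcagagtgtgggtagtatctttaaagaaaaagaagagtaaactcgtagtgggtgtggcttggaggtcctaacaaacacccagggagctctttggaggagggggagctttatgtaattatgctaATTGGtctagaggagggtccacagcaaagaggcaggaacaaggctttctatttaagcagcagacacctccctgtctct
Ces1g, chr8:93337210-93337459: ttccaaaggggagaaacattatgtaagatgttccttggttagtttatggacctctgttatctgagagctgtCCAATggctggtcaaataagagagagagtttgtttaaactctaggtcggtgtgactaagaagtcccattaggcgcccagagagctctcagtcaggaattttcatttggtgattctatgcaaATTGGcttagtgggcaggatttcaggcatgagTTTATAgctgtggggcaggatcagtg
Cyp2d26, chr15:82794246-82794495: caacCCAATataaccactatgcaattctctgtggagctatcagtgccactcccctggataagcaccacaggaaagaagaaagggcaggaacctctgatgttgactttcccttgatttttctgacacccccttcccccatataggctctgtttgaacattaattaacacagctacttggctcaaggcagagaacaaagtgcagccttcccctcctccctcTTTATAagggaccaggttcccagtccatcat

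The Ces1c window held 1 CCAAT match, beginning 78 bases before the start, and no TATAAA. The Ces1g window held 2 CCAAT matches, 179 and 58 bases before the start, and a TATAAA match at 26. The Cyp2d26 window held a CCAAT match at 246 and a TATAAA match at 31. Among 32851 windows of the same length, 33.8% held CCAAT and 12.4% held TATAAA on either strand. None of the 3 windows held GGGCGG (32.7% of all windows), GCGTG, the core letters bound by the Ah receptor (28.2%), AGGTCA, a nuclear receptor half-site (14% of windows), or TGACGTCA, the cAMP response element (1.55%). A match describes letters in the window and not a bound site.

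The family gave less signal in testis RNA than the array as a whole. A probe set was tested only if it reached the 40th percentile of its array's intensities on at least 2 of the 8 arrays. Of the 49 members, 25 probe sets of 24 genes did so, or 51% against 71.4% of all probe sets on the array. Members that reached this level on all 8 arrays numbered 7 (14.3% against 42.9% of all probe sets), and 20 reached it on none (40.8% against 20.8%). Intensities under 18.7, the 10th percentile of all values, were raised to that floor. No member was at the floor on all 8 arrays, and 26 were there on at least 1. Probe sets differ in how strongly they bind their transcript. Levels of different genes are thus only a rough guide, and group differences were read between arrays. Whether the groups differ in sequence under the probes was not tested.

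Among the 4 groups, 1 of the 25 tested members, or 4% of them, passed the call rule of an adjusted p under 0.05 and a range of group means of at least 2-fold, beside 1.76% of all 8874 tested probe sets. An unadjusted p under 0.05 was found for 6 of the 25, or 24%, beside 15.9% of all tested. These were Ces1c, both Ces1d probe sets, Cyp2d26, Cyp2b10 and Cyp2c70. Over all 49 members, tested or not, the median range of group means was 1.06 log2, against 0.86 over all 12422 probe sets. Their replicate arrays also differed more, by a median of 0.71 log2 against 0.55. For the 25 tested members this median was 0.85 log2, against 0.48 over all tested probe sets. Tested members were on balance higher in ssp and castaneus: the median difference from the mean of the other 3 groups was 0.28 log2 in ssp, 0.16 in castaneus, -0.16 in domesticus and -0.18 in musculus. Over all tested probe sets these medians were 0.05, 0.01, -0.01 and 0.01. Of the 25, 18 were above the mean of the other groups in ssp, 17 in castaneus, 10 in musculus and 9 in domesticus. The same counts over all tested probe sets were not taken, and the 25 hold both Ces1d probe sets, which share 1 target. The range of group means was smaller than the mean difference between replicate arrays for 7 of the 25 tested members, or 28%, beside 24.3% of all tested probe sets.

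**Figure D1:**
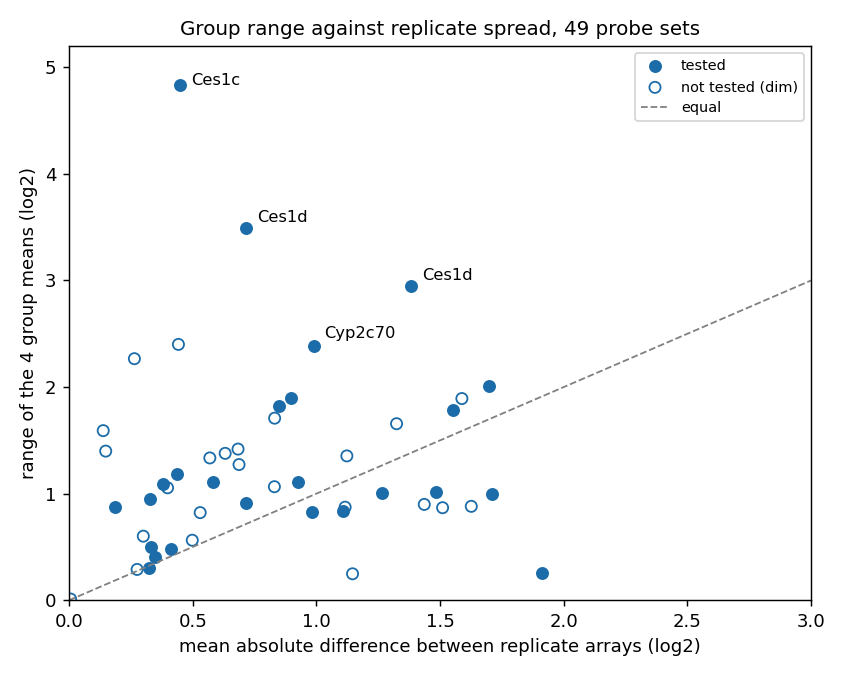
Each point is 1 of the 49 probe sets, with the mean absolute difference between replicate arrays on the x axis and the range of the 4 group means on the y axis, both in log2 units. Filled points were tested and open points were too dim, and Ces1c, at a range of 4.83, stands furthest above the dashed line of equality.

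The carboxylesterases held the widest differences. Ces1c read 381.3 and 504.5 on the castaneus arrays and 542.4 and 628.4 on the ssp arrays. It read 17.9 and 22.4 on the domesticus arrays and 48.4 and 91.6 on the musculus arrays. Castaneus and ssp were therefore high and did not overlap with the other groups, domesticus was lowest with 1 of its 2 arrays at the floor, and musculus lay between. The musculus and domesticus values were below the brightness level of their arrays.

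After the floor, the geometric mean of Ces1c was 438.6 in castaneus (SD 0.29 log2, n = 2), 583.8 in ssp (SD 0.15), 66.6 in musculus (SD 0.65) and 20.5 in domesticus (SD 0.18). The 4.83 log2 range among groups had an adjusted p of 0.012 by limma's moderated F test. With 1 array left out, which leaves 1 array in its group, the range was 4.7 to 4.96 log2. Ces1c was then not called without either castaneus or either domesticus array, where far fewer probe sets were called over the whole array. Without a musculus or ssp array Ces1c remained called, and it was called under all 8 other settings tried.

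Ces1c was also the only member called between 2 groups. It passed the brightness filter only through its castaneus and ssp arrays, and without that filter only the call of ssp over domesticus remained. Ces1c was 21.4-fold higher in castaneus than in domesticus (log2 difference 4.42, SE 0.37, adjusted p = 0.0212). There 1 of 25 members, Ces1c, and 0.214% of all tested probe sets were called higher in castaneus. Ces1c was 28.5-fold higher in ssp than in domesticus (adjusted p = 0.0115, background 0.225%). The size of both folds depends on the floor, since 1 domesticus array lay under it: with the floor at the 20th percentile in place of the 10th, the differences were 3.54 log2 for castaneus over domesticus and 3.95 for ssp over domesticus, and both remained called. Against musculus, it was 6.59-fold higher in castaneus (adjusted p = 0.0433, background 0.451%) and 8.77-fold higher in ssp (adjusted p = 0.0323, background 0.372%). These background shares count only probe sets called in the direction of the Ces1c call and leave out the reverse direction. Both calls against musculus were lost on leaving out any 1 of the 8 arrays. The differences were then 2.26 to 3.18 log2 for castaneus minus musculus and -3.59 to -2.67 for musculus minus ssp. The call of castaneus over domesticus was lost without any 1 array of these 2 groups, and that of ssp over domesticus without either domesticus array or ssp replicate 2. Each such fit leaves 1 array in a group, and among the 4 groups far fewer probe sets were then called over the whole array.

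Ces1c did not pass between castaneus and ssp (1.33-fold higher in ssp, adjusted p = 0.752) or between domesticus and musculus (3.25-fold higher in musculus, adjusted p = 0.138). For these pairs limma called 0 members, beside 0.349% and 0.744% of all tested probe sets in either direction. At an unadjusted p under 0.05 there were 1 and 6 members, and the share of all tested probe sets at that level was not taken.

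Ces1d, a microsomal triacylglycerol hydrolase of liver and fat, had a different order of groups. The probe set with the suffix f read 436.8 and 416.2 in castaneus, 270.1 and 402.7 in domesticus, 482.9 and 352.6 in ssp, and 69.8 and 20.5 in musculus. The probe set with the suffix i read 462.8 and 245.8 in castaneus, 496.2 and 212.8 in domesticus, 175 and 338.9 in ssp, and 101.7 and 18.3 in musculus. On both, the 2 musculus arrays were below all 6 others, although they differed from each other by more than 3-fold, and domesticus was not low.

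The f probe set of Ces1d spanned 11.3-fold and did not pass among the 4 groups (limma, adjusted p = 0.0737), nor did the i probe set, with a 7.73-fold span (adjusted p = 0.286). In pairs, the f probe set was 11.3-fold lower in musculus than in castaneus (SE 0.58 log2, adjusted p = 0.0608), 8.72-fold lower than in domesticus (adjusted p = 0.0948) and 10.9-fold lower than in ssp (adjusted p = 0.0616). It passed among the 4 groups under 4 of the 8 other settings, with adjusted p from 0.0108 to 0.0485. Those settings called 157 to 383 probe sets in all, against 156. The f probe set passed under none that left out 1 array, where far fewer probe sets were called over the whole array. In the manufacturer's naming, f stands for probes shared with a gene family and i for a reduced probe number. Both probe sets share 1 target and are not independent evidence.

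**Figure D2:**
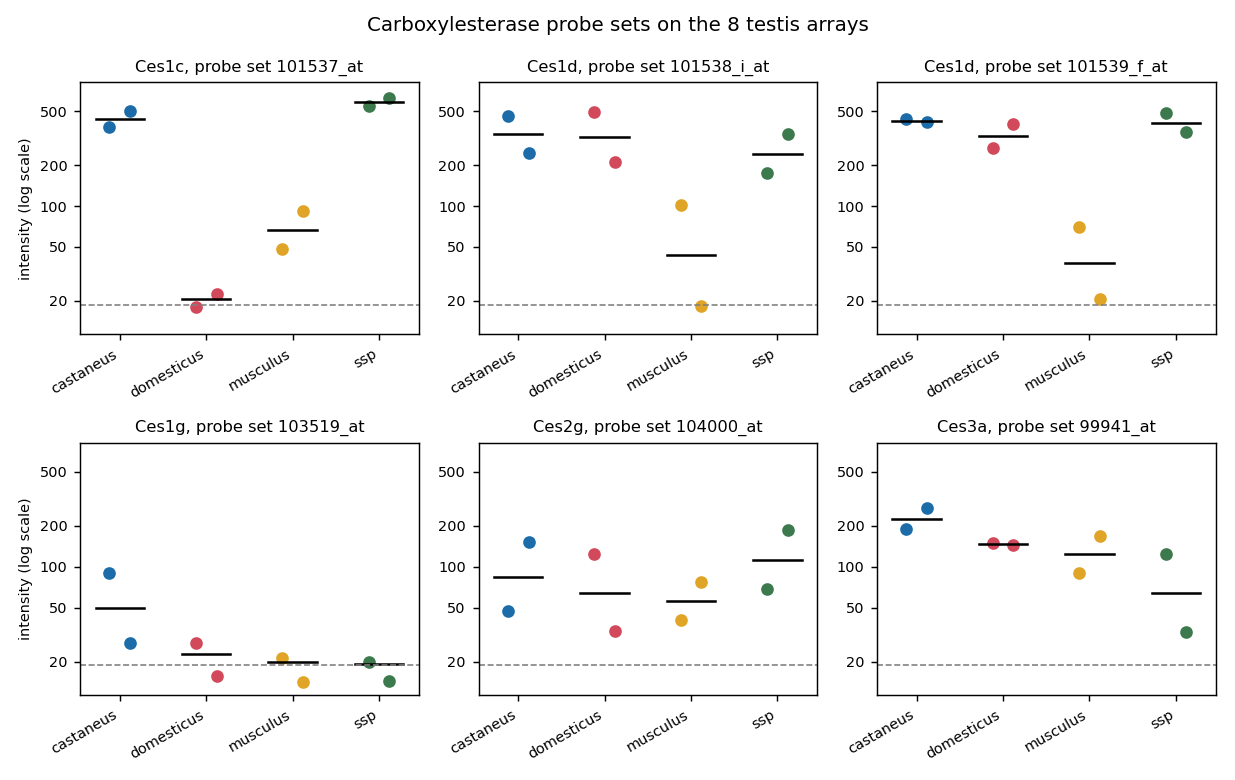
Intensity on a log scale for the 6 carboxylesterase probe sets, with 1 point per array, a black bar at the geometric mean of each group of 2 and a dashed line at the floor of 18.7. Ces1c is low in domesticus and musculus, and both Ces1d probe sets are low in musculus alone.

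The other carboxylesterases did not pass. Ces3a read 189.1 and 272 in castaneus, 149.2 and 143.5 in domesticus, 90.2 and 169.8 in musculus, and 124 and 33.3 in ssp. Both castaneus arrays were above the other 6, and the 3.53-fold span had an adjusted p of 0.46. Ces2g read 46.8 and 151.6 in castaneus, 124.2 and 33.5 in domesticus, 40.8 and 76.9 in musculus, and 68.8 and 185.7 in ssp, so its replicates differed by more than its groups (1.48 log2 on average against a range of 1.01, adjusted p = 0.868). Ces1g, a liver carboxylesterase, was not tested: it read 90.2 and 27.6 in castaneus and between 14.1 and 27.4 on the other arrays.

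Ces1c, Ces1d and Ces1g lie in 1 run of 8 Ces1 genes on chromosome 8 in RefSeq gene order, of which these 3 are measured here. The 5 nearest measured genes on each side of the run gave 18 probe sets, 12 of them tested. Limma called 0 of the 12, beside 1.76% of all tested probe sets among the 4 groups. The widest of the 12 spanned 2.17-fold, and their lowest adjusted p by the moderated F test was 0.408. Wider spans were seen in neighbours too dim to be tested: 4.14-fold for 1 Mmp2 probe set, highest in castaneus, and 3.48-fold for Mt4, highest in ssp. Ces2g and Ces3a lie elsewhere on the same chromosome, as does the P450 Cyp4v3.

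No P450 passed. Limma called 0 of the 20 tested P450 probe sets among the 4 groups and 0 in each of the 6 pairs. At an unadjusted p under 0.05 there were 3 among the groups (Cyp2d26, Cyp2b10 and Cyp2c70) and 0 to 5 in a pair. The 5 were between domesticus and ssp, and the same pair counts over all tested probe sets were not taken. No P450 was called under any of the 8 other settings or without any 1 array. The widest span among these 20 was 5.24-fold. In 7 of the 20, and in 11 of all 25 tested members (44%), both arrays of 1 group lay above or below the 6 others, beside 39.8% of all tested probe sets.

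The Cyp2 family, the largest group of enzymes for foreign compounds, held 18 of the probe sets, of which 12 were tested. Cyp2c70, which makes the muricholic acids of mouse bile, had the widest span among tested P450 probe sets: 235.8 and 311.8 in castaneus, 218.7 and 198.9 in ssp, 138.5 and 45.6 in musculus, and 97.1 and 27.6 in domesticus. Its castaneus and ssp arrays were above the other 4, as those of Ces1c were. The 5.24-fold span did not pass (adjusted p = 0.298), and the 2 domesticus arrays differed from each other (SD 1.28 log2, n = 2).

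Cyp2b10, the phenobarbital-inducible P450 of mouse liver, read 122.2 and 148.5 in castaneus, 106.1 and 91.4 in domesticus, 227 and 159 in musculus, and 175.6 and 249 in ssp. Cyp2f2, the naphthalene-activating P450 of the lung airway, read 386 and 291.7 in castaneus, 185.4 and 117.3 in domesticus, 367.4 and 232.5 in musculus, and 298.4 and 292.5 in ssp. Cyp2e1, which oxidises ethanol and other small molecules, read 576.5 and 254.4 in castaneus, 245.8 and 162.8 in domesticus, 270.5 and 261.3 in musculus, and 363.1 and 512.3 in ssp. In all 3 genes both domesticus arrays lay below the other 6. The spans were 2.12, 2.27 and 2.16-fold, and none passed (adjusted p = 0.292, 0.321 and 0.487).

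Cyp2d26 went the other way. It read 1089.5 and 1048.8 in domesticus, 792.1 and 883.1 in castaneus, 656.3 and 566.3 in musculus, and 523.6 and 651.8 in ssp. Both domesticus arrays were above the other 6, with a 1.83-fold span that was under the 2-fold threshold (adjusted p = 0.269). Its replicates differed by 0.18 log2 on average, less than those of any other tested member.

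Cyp2a12, a bile acid hydroxylase of mouse liver, and Cyp2c38 were even across the groups. Cyp2a12 read 499.6 and 548.5 in castaneus, 426.2 and 364.5 in domesticus, 413.3 and 618 in musculus, and 440.4 and 603.8 in ssp. Cyp2c38 read 370.8 and 375.8 in castaneus, 373.7 and 341 in domesticus, 469.7 and 242.6 in musculus, and 390.9 and 443.6 in ssp. Their spans of 1.33 and 1.23-fold had adjusted p of 0.798 and 0.934, and both genes reached the brightness level on all 8 arrays.

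For the remaining tested Cyp2 genes the 2 arrays of a group often disagreed. Cyp2d10, by the brighter of its 2 probe sets, read 139 and 41 in domesticus, 163.9 and 20.4 in ssp, 76 and 11.8 in castaneus, and 18.7 and 9.1 in musculus. Both musculus arrays were at the floor, so domesticus was at least 4.04-fold higher (limma, adjusted p = 0.59 between this pair and 0.704 among the 4 groups), and the other Cyp2d10 probe set lay between 8 and 19 on all arrays. Cyp2c29 read 16.7 and 78.8 in castaneus, 29.7 and 128.6 in domesticus, 38.9 and 108.5 in musculus, and 159.8 and 109.3 in ssp, with adjusted p = 0.704.

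Cyp2c39 read 307.8 and 51.6 in castaneus, 129.1 and 341.2 in domesticus, 234.5 and 271 in musculus, and 84.6 and 530.6 in ssp. Cyp2s1, a P450 of epithelia outside the liver, read 105.5 and 119.5 in castaneus, 154.7 and 44.1 in domesticus, 130.9 and 241.3 in musculus, and 141.2 and 79.9 in ssp. Cyp2d9 read 179.2 and 192.8 in castaneus, 272.1 and 66.9 in domesticus, 167.8 and 186.7 in musculus, and 185.3 and 59.1 in ssp. All groups overlapped for Cyp2c39 and Cyp2d9, and for Cyp2s1 all but castaneus and musculus did. The spans of 2, 2.15 and 1.78-fold had adjusted p of 0.926, 0.738 and 0.869. The mean difference between replicates was 1.71 log2 for Cyp2c39, 0.92 for Cyp2s1 and 0.98 for Cyp2d9.

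The other 5 Cyp2 genes on the array (Cyp2b9, Cyp2b13, Cyp2b19, Cyp2j5 and Cyp2j6) were not tested and lay between 2.1 and 110.4. Of these, Cyp2b13 read 88.2 and 110.4 in ssp and 15.5 to 37.2 elsewhere, and both ssp arrays were under the brightness level.

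**Figure D3:**
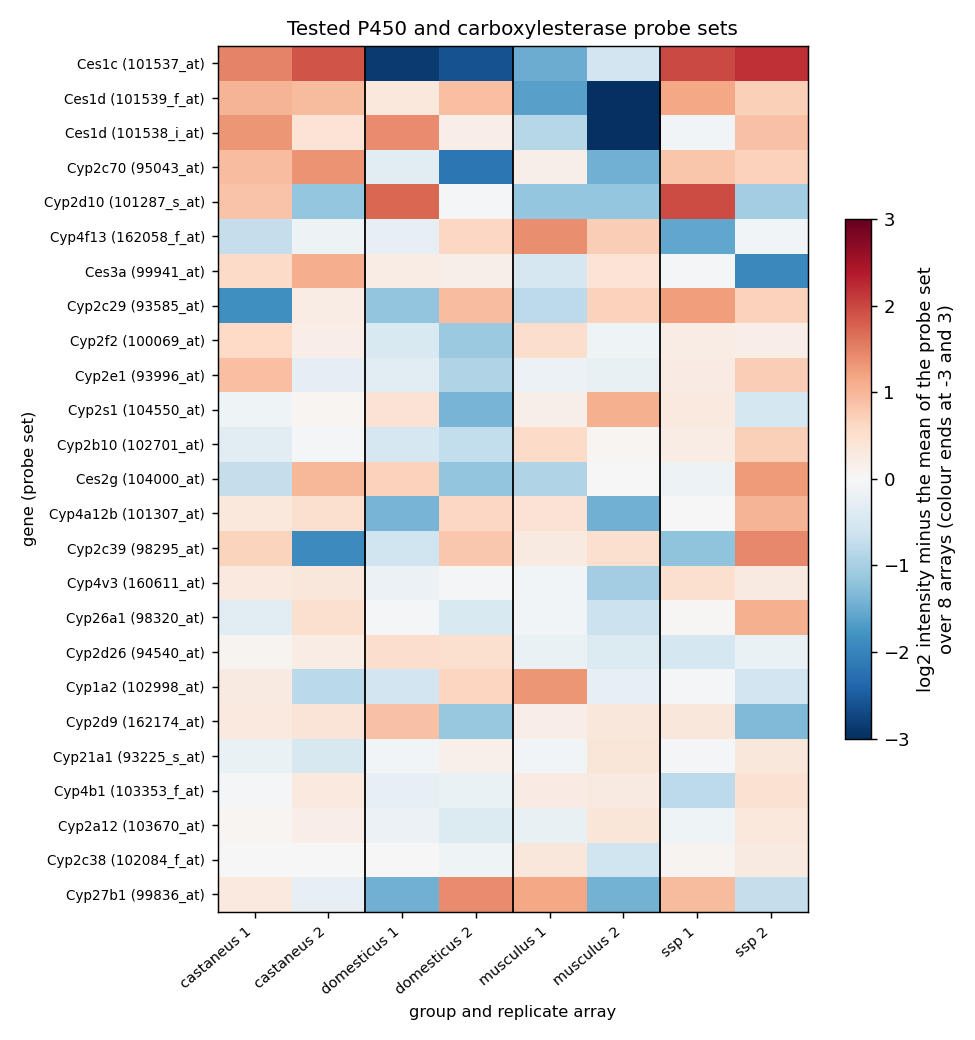
Each row is 1 of the 25 tested probe sets, ordered by the range of its group means, and each column 1 array. Colour is the log2 intensity minus the mean of that probe set over the 8 arrays. The contrast is strongest for Ces1c and the 2 Ces1d probe sets, and below them the 2 arrays of a group often differ in colour.

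The Cyp4 enzymes, which hydroxylate fatty acids at the end of the chain, had 7 probe sets, of which 4 were tested. Cyp4f13, by the brighter of its 2 probe sets, read 166.2 and 105.2 in musculus, 38.2 and 56.1 in castaneus, 52.7 and 97.2 in domesticus, and 21.2 and 59.7 in ssp. Both musculus arrays were above the other 6, and the 3.72-fold span did not pass (adjusted p = 0.35). The other Cyp4f13 probe set read 32.6 and 31.5 in musculus and 15.2 to 57.1 in the other groups, and was too dim to be tested.

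Cyp4v3, the mouse relative of the human gene of Bietti crystalline dystrophy, read 159.1 and 162.3 in castaneus, 113.3 and 123 in domesticus, 121.2 and 62.1 in musculus, and 179.4 and 156.6 in ssp. Its castaneus and ssp arrays were above the other 4, with a 1.93-fold span (adjusted p = 0.421). Cyp4a12b, a hydroxylase of arachidonic acid, read 269.7 and 298.5 in castaneus, 81.6 and 329.5 in domesticus, 289.8 and 79.4 in musculus, and 212.7 and 436.1 in ssp, so that the groups overlapped (adjusted p = 0.808). Cyp4b1 spanned 1.39-fold (adjusted p = 0.848). Cyp4a10 and Cyp4a14, inducible through PPAR alpha in liver, were not tested, with no value above 91.9.

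P450 enzymes of steroid, bile acid, vitamin D and retinoic acid metabolism had 9 probe sets of 7 genes, of which 3 were tested. Cyp21a1, the steroid hydroxylase of the adrenal cortex, read 445.6 and 369.6 in castaneus, 486.6 and 570 in domesticus, 480.9 and 661.8 in musculus, and 504.1 and 651.4 in ssp. The castaneus arrays were the lowest, by a 1.41-fold span (adjusted p = 0.682), and the suffix s of its probe set marks probes shared between similar transcripts. Cyp26a1, which degrades retinoic acid, read 90.7 and 160.2 in castaneus, 111.8 and 83.8 in domesticus, 109.5 and 73.6 in musculus, and 117.5 and 243.3 in ssp (adjusted p = 0.637).

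Cyp27b1, which activates vitamin D, had the smallest span among tested members, 1.19-fold, with replicates that differed by 1.91 log2 on average. Cyp24a1, which inactivates vitamin D, Cyp7a1, the rate-limiting enzyme of bile acid synthesis, Cyp7b1, an oxysterol hydroxylase, and Cyp8b1, which directs synthesis to cholic acid, were not tested. Their 6 probe sets lay between 3.7 and 134.8. The 2 Cyp24a1 probe sets disagreed: 1 read 114 and 71 in ssp and at most 24.2 elsewhere, and the other read 9.7 and 41.1 in ssp.

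Cyp1 enzymes are induced through the Ah receptor. Of 5 probe sets only that of Cyp1a2 was tested, with 81.3 and 38.1 in castaneus, 44.8 and 105.3 in domesticus, 166.8 and 56.6 in musculus, and 65.5 and 44.9 in ssp, and overlapping groups (adjusted p = 0.838). The 4 probe sets of Cyp1a1 and Cyp1b1 reached at most 183.3. None of the 4 Cyp3 probe sets, of the family that oxidises many drugs and steroids in liver, was tested, and their values lay between 2.7 and 113.9.

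Genes that work with these enzymes were taken from 7 lists of 140 genes. Of these, 106 had a probe set with 1 symbol, and 80 probe sets of 67 genes were tested. Among the 4 groups, limma called 2 of the 80, or 2.5%, beside 1.76% of all tested. An unadjusted p under 0.05 was found for 16 of the 80, beside 15.9% of all tested. The median range of group means was 1.05 log2, against 0.81 over all tested probe sets. Por and Fdxr, the reductases that feed microsomal and mitochondrial P450 enzymes, are not analysed here.

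Among electron donors and their partners, 1 of 7 tested probe sets passed. Cyb5r4, a cytochrome b5 reductase, read 212.8 and 271.2 in castaneus, 1204.8 and 1433.4 in domesticus, 1247.4 and 1299.5 in musculus, and 1687.1 and 1449.6 in ssp. It was lower in castaneus than in each other group, by 5.3 to 6.51-fold (adjusted p at most 0.0304). Its call among the 4 groups (adjusted p = 0.0242) was lost without any 1 of the 8 arrays. The range was then 2.53 to 2.88 log2, and far fewer probe sets were called over the whole array. The call was also lost with the replicate number added to the fit as a block, which called 42 probe sets in all, against 156.

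Cyb5a, cytochrome b5 itself, read 640.9 and 725 in castaneus, 627.2 and 785.2 in domesticus, 551 and 697.8 in musculus, and 558.4 and 521.9 in ssp (adjusted p = 0.782). Fdx1, the ferredoxin of mitochondrial P450 enzymes, read 4399.4 and 7811.7 in musculus and 2102.9 to 3984.7 elsewhere, by the brighter of its 2 probe sets, and did not pass (adjusted p = 0.504). Its dim probe set lay between 14.1 and 31.5. Alas1, which starts haem synthesis, read 3170.2 and 3956.4 in castaneus, 3869.4 and 4589.7 in domesticus, 5354.5 and 5366 in musculus, and 4312.5 and 3889.5 in ssp (adjusted p = 0.557). Both musculus arrays were the highest for Fdx1 and Alas1.

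Among other esterases and lipases, 1 of 14 tested probe sets passed. Pon2, an intracellular lactonase of the paraoxonase family, read 33 and 63.2 in castaneus, 452.5 and 452 in domesticus, 181.6 and 171.4 in musculus, and 243.9 and 199 in ssp. Castaneus was lowest, then musculus, ssp and domesticus, and no groups overlapped. It was 9.9-fold lower in castaneus than in domesticus (SE 0.35 log2, adjusted p = 0.0304). The call among the groups (adjusted p = 0.0362) was lost without any 1 of the 8 arrays. The range was then 2.84 to 3.78 log2, and far fewer probe sets were called over the whole array. With the replicate number as a block the Pon2 call was lost too.

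Among the 4 groups, limma called 0 probe sets in the other 5 lists. These were 0 of 11 for haem synthesis and breakdown, 0 of 21 for nuclear receptors and sensors, 0 of 6 for epoxide hydrolases and conjugating enzymes, 0 of 9 for flavin monooxygenases and other oxidases and 0 of 12 for retinoid enzymes and binding proteins. At an unadjusted p under 0.05 there were 1, 6, 1, 0 and 5. Between 2 groups, Ephx1 was called higher in musculus (2109.4 and 3221.7) than in ssp (649.8 and 490.3). The f probe set of Rdh11 was called higher in castaneus (8751.1 and 15607.3) than in musculus (1511.3 and 1702.2). The i probe set of Rdh11 was not called.

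**Figure D4:**
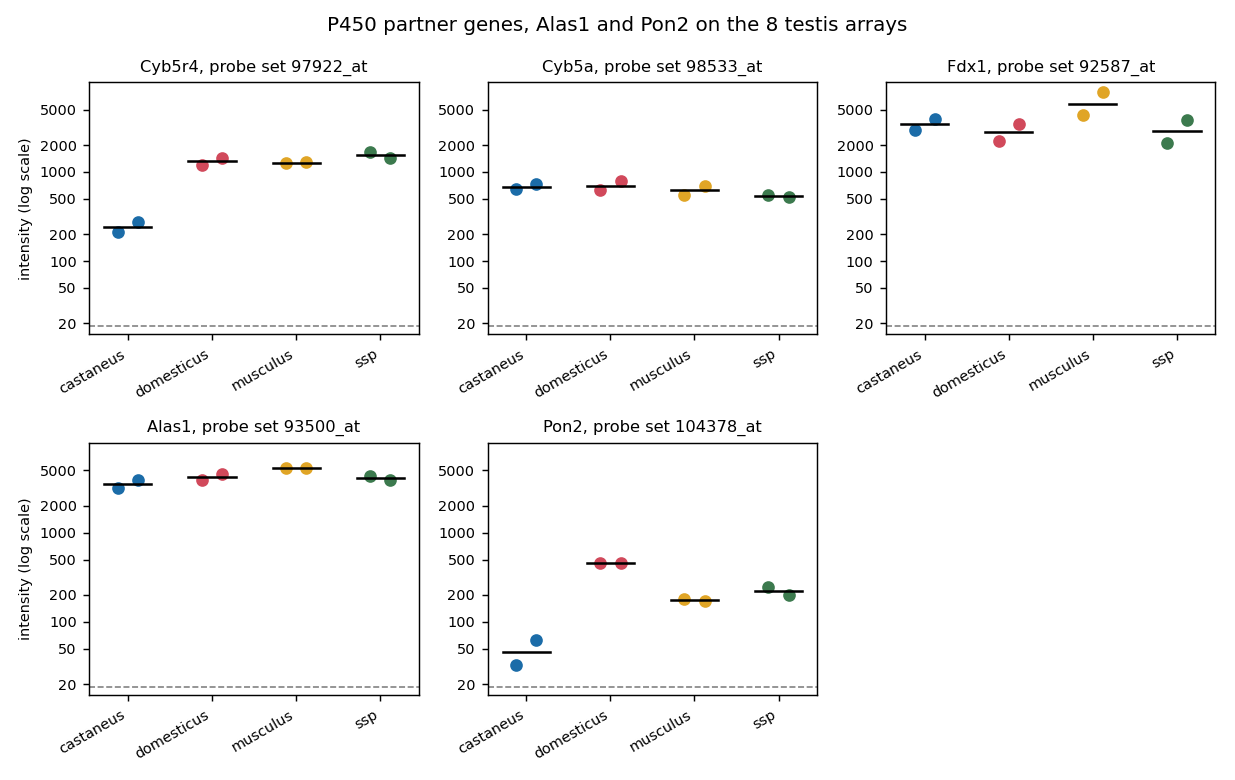
Intensity on a log scale for Cyb5r4, Cyb5a, Fdx1, Alas1 and Pon2, with 1 point per array, a black bar at the geometric mean of each group of 2 and a dashed line at the floor. Cyb5r4 and Pon2 are lowest in castaneus, while Cyb5a and Alas1 are level within 2-fold.

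Marker genes were read beside these results, as mean log2 intensity over a list, with the brightest probe set of each gene. The label testis was borne out by the mean of the spermatid list (8 of 8 measured), at 13.8 to 14.6 on the 8 arrays. The spermatocyte list was at 11.1 to 11.8. Not every gene in them was bright: Prm2 read 114.2 to 428.5 and Sycp3 1.3 to 102.3. Hepatocyte markers (10 of 12 measured, 5 of them tested, 0 called) were low, at 5.42 to 6.25. Their group means were 6.01 for ssp, 5.94 for domesticus, 5.93 for castaneus and 5.56 for musculus. They summed to 727.3 to 848.9 intensity units in castaneus, 608.3 to 899.2 in domesticus, 540.3 to 611.6 in musculus and 725.3 to 945.5 in ssp, and Fgb was at the floor on all arrays. Adipocyte markers (5 of 7 measured) were highest in ssp at 7.21, against 6.31 in castaneus, 6.44 in domesticus and 6.70 in musculus, with Adipoq, at 914.4 to 941 in ssp and 123.7 to 191.7 in castaneus, the 1 called.

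Leydig cell markers (9 of 10 measured, 2 called) were highest in musculus, where both Ces1d probe sets were lowest, at 10.1 against 8.63 in castaneus, 8.97 in domesticus and 8.87 in ssp. Their sum was 22280 to 25920 in musculus and 7569 to 10660 in the other groups. Red blood cell markers (4 of 5 measured, 2 called) were also highest in musculus, at 9.61 against 7.42 to 8.81. Within that list the haemoglobin gene Hbb-b2 (called), Hba-a1 and Alas2 were highest on both musculus arrays, with Hbb-b2 at 1124 and 1546.6 there and 86.3 to 477.7 elsewhere. Slc4a1, the red cell anion exchanger and the other called marker, read 112.5 and 85.1 in castaneus and 174.6 and 116.4 in ssp, against 18.4 to 31.3 in domesticus and musculus. Its values are given because its high and low groups are those of Ces1c, and it was singled out after its values were seen. The other 7 lists held 0 probe sets called among the 4 groups. They were spermatogonium, Sertoli cell, epididymal epithelium, macrophage, endothelial cell, kidney and adrenal, and muscle. Cyp21a1 is itself in the kidney and adrenal list, and Fdx1 in that of Leydig cells. The part of these cells in the carboxylesterase values was not tested, and in whole testis RNA fewer cells of a type and less RNA per cell cannot be told apart.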

How the data were processed

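The authors deposited linear intensities, 1 per probe set and array, already scaled to a common mean (trimmed means 495.6 to 496.7). The sources used here do not name the probe summary method or software.

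Deposited intensities were floored at their 10th percentile (18.7) and log2 was taken. The 8874 probe sets that reached the 40th percentile on at least 2 arrays were fitted in limma 3.58.1 (R 4.3.3) with 1 mean per group, leaving 4 residual and 2.34 prior degrees of freedom. Adjusted p-values are Benjamini-Hochberg over all tested probe sets, by the moderated F test or, per pair, by moderated contrasts. Folds are ratios of geometric means. The fit was tested on simulated data, and under other floors, filters, normalizations and variance models, a replicate block and with each array left out. The number of arrays limits the precision.

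Named with every value are called members, tested members of widest range, up to 20 genes in all, and the 6 brightest. All 49 members matched the RefSeq table (GRCm38.p6), and no symbol changed. Members, gene lists and markers were chosen with earlier results of these data known.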

Additional observations from a re-analysis of the deposited data

How the results depend on the processing

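Only Ces1c and 1 Ces1d probe set were ever called among the members. With the floor at the 20th percentile, the filter at the 60th, quantile normalization or a trended and robust variance model, 2 members differed among the 4 groups in place of 1, Ces1d being the second. Over all tested probe sets, calls in these settings were 215 of 8874, 309 of 5882, 157 of 8874 and 383 of 8874, against 156 of 8874. Between groups, castaneus with musculus and musculus with ssp gave 2 under the floor, filter and variance settings (the latter pair also after quantile normalization), and domesticus with musculus gave 1. Of all tested probe sets, the floor, filter and variance settings called 118, 185 and 223 for castaneus with musculus. For musculus with ssp they called 129, 146 and 196 (100 after quantile normalization), and for domesticus with musculus 86, 129 and 175. Without a filter, castaneus with domesticus, castaneus with musculus and musculus with ssp gave 0 members, beside 4, 32 and 28 of all 12422 probe sets. For castaneus with musculus, Ces1d took the place of Ces1c after median centring and after quantile normalization. Fitted alone on 4 arrays, each pair gave 0 members and also 0 of all tested probe sets. Leaving out 1 array leaves 1 array in a group, and far fewer probe sets were then called among the 4 groups over the whole array. Ces1c was the only member called in such fits, and only in some of them. Of the partner genes, 6 passed with the stricter filter or the trended variance, 1 without a filter and 0 with the replicate block, against 2. Over all tested probe sets these settings called 309, 383, 31 and 42, against 156. The partner calls were also lost with 1 array left out, where far fewer probe sets passed over the whole array. The cause was not tested. Choosing members by updated symbols changed no count.

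Deviations of same-numbered arrays correlated at 0.0263 to 0.171 across the 6 pairs of groups, all above 0 and 4 over 0.1. The cut-off chosen for treating the numbers as pairs was all 6 over 0.1, so the main fit did not use them. With the replicate number as a block, 1 member (Ces1c) still differed and 42 probe sets in all, against 156, while Cyb5r4 (adjusted p = 0.0519) and Pon2 (0.0733) did not pass. The Ces1c range was 4.7 to 4.96 log2 with 1 array left out and 3.95 to 4.87 under the other settings. Median centring shifted castaneus against ssp by 0.14 log2, and no called direction turned.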
